A study of Mus musculus with 10 samples.

Results

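The Wnt ligands, receptors and modulators were followed in ribosome profiling (Ribo-seq) of the developing mouse neocortex. They were the genes of the footprint count table with a numbered Wnt or Fzd symbol or a symbol among Sfrp1 to Sfrp5, Dkk1 to Dkk4 and Rspo1 to Rspo4, together with Lrp5, Lrp6, Lef1, Tcf7, Tcf7l1, Tcf7l2, Axin2 and Ctnnb1. This gave 49 of the 22373 genes in the table: 19 Wnt ligands, 10 Frizzled receptors, 2 co-receptors, 4 secreted Frizzled-related proteins, 4 Dickkopf proteins, 4 R-spondins and 6 intracellular or nuclear components. Ribosome-protected mRNA fragments (footprints) were counted in neocortex of wild-type CD-1 mice at 4 embryonic stages, from E12.5 over E14 and E15.5 to E17, and at P0, the day of birth. Each of the 5 stages had 2 libraries, and each library was a pool of brains of both sexes, so the spread between libraries is that between pools. By their labels the groups differed in stage alone, and all lysates were cut with the same mix of ribonucleases. Footprints report ribosomes on an mRNA, which depends on how much of the mRNA there is and on how it is translated.

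Wnt proteins are secreted, lipid-modified signals. In the canonical branch a Wnt bridges a Frizzled receptor and an Lrp5 or Lrp6 co-receptor, which stops the Axin and Apc complex from destroying beta-catenin (Ctnnb1), so that beta-catenin can join Tcf and Lef proteins on target genes. Sfrp proteins bind Wnts outside the cell, most Dickkopf proteins block the co-receptors, and R-spondins keep Frizzled receptors at the cell surface. In the embryonic cortex the pathway is known for a source of ligands at the medial edge, the cortical hem, for the balance of progenitor division and neurogenesis, and for signals from neural cells to the growing vessels.

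The 10 libraries held between 7544404 counts (P0 replicate 1) and 36129988 counts (E14 replicate 2), and levels are given as CPM, counts scaled to a common size of the TMM-adjusted library. CPM is not corrected for gene length, and no coding lengths were used, so levels are compared only within a gene between stages. Replicates of a stage differed by an SD of log2 ratios of 0.125 to 0.216 at the 4 embryonic stages and 0.532 at P0, over 4559 well-covered genes, so the P0 libraries stood apart and results that rest on 1 of them are given with and without it. Histone genes took 32.7% to 38.5% of the counts at E12.5 and E14 and 6.32% to 18.7% from E15.5 on. Markers of the neocortex summed to between 612 and 950 CPM in every library, and none of these markers was at 0 at any stage. In bulk tissue, fewer cells of a type and less RNA per cell cannot be told apart.

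Of the 49 genes, 28 reached 32 footprints summed over both libraries of at least one stage and were tested. These were 7 ligands (Wnt3a, Wnt5a, Wnt5b, Wnt7a, Wnt7b, Wnt8b and Wnt9a), 7 Frizzled receptors (Fzd1, Fzd2, Fzd3, Fzd6, Fzd7, Fzd8 and Fzd9), both co-receptors, Sfrp1, Sfrp2, Dkk3, Rspo1, Rspo2, Rspo3 and all 6 intracellular or nuclear genes. Of the tested genes, 21 reached 32 footprints at every stage, Fzd2 and Fzd9 at 4 stages, Fzd6 at 3, and Rspo1, Wnt3a, Wnt8b and Wnt9a at only 2. A gene that passes only through stages where it is high had to differ from those where it is low, so the counts below describe the tested genes and not the whole family. Adjusted p-values of such genes between those stages are likewise description and no support. The other 21 genes had between 0 and 89 counts over the 10 libraries.

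**Figure D1:**
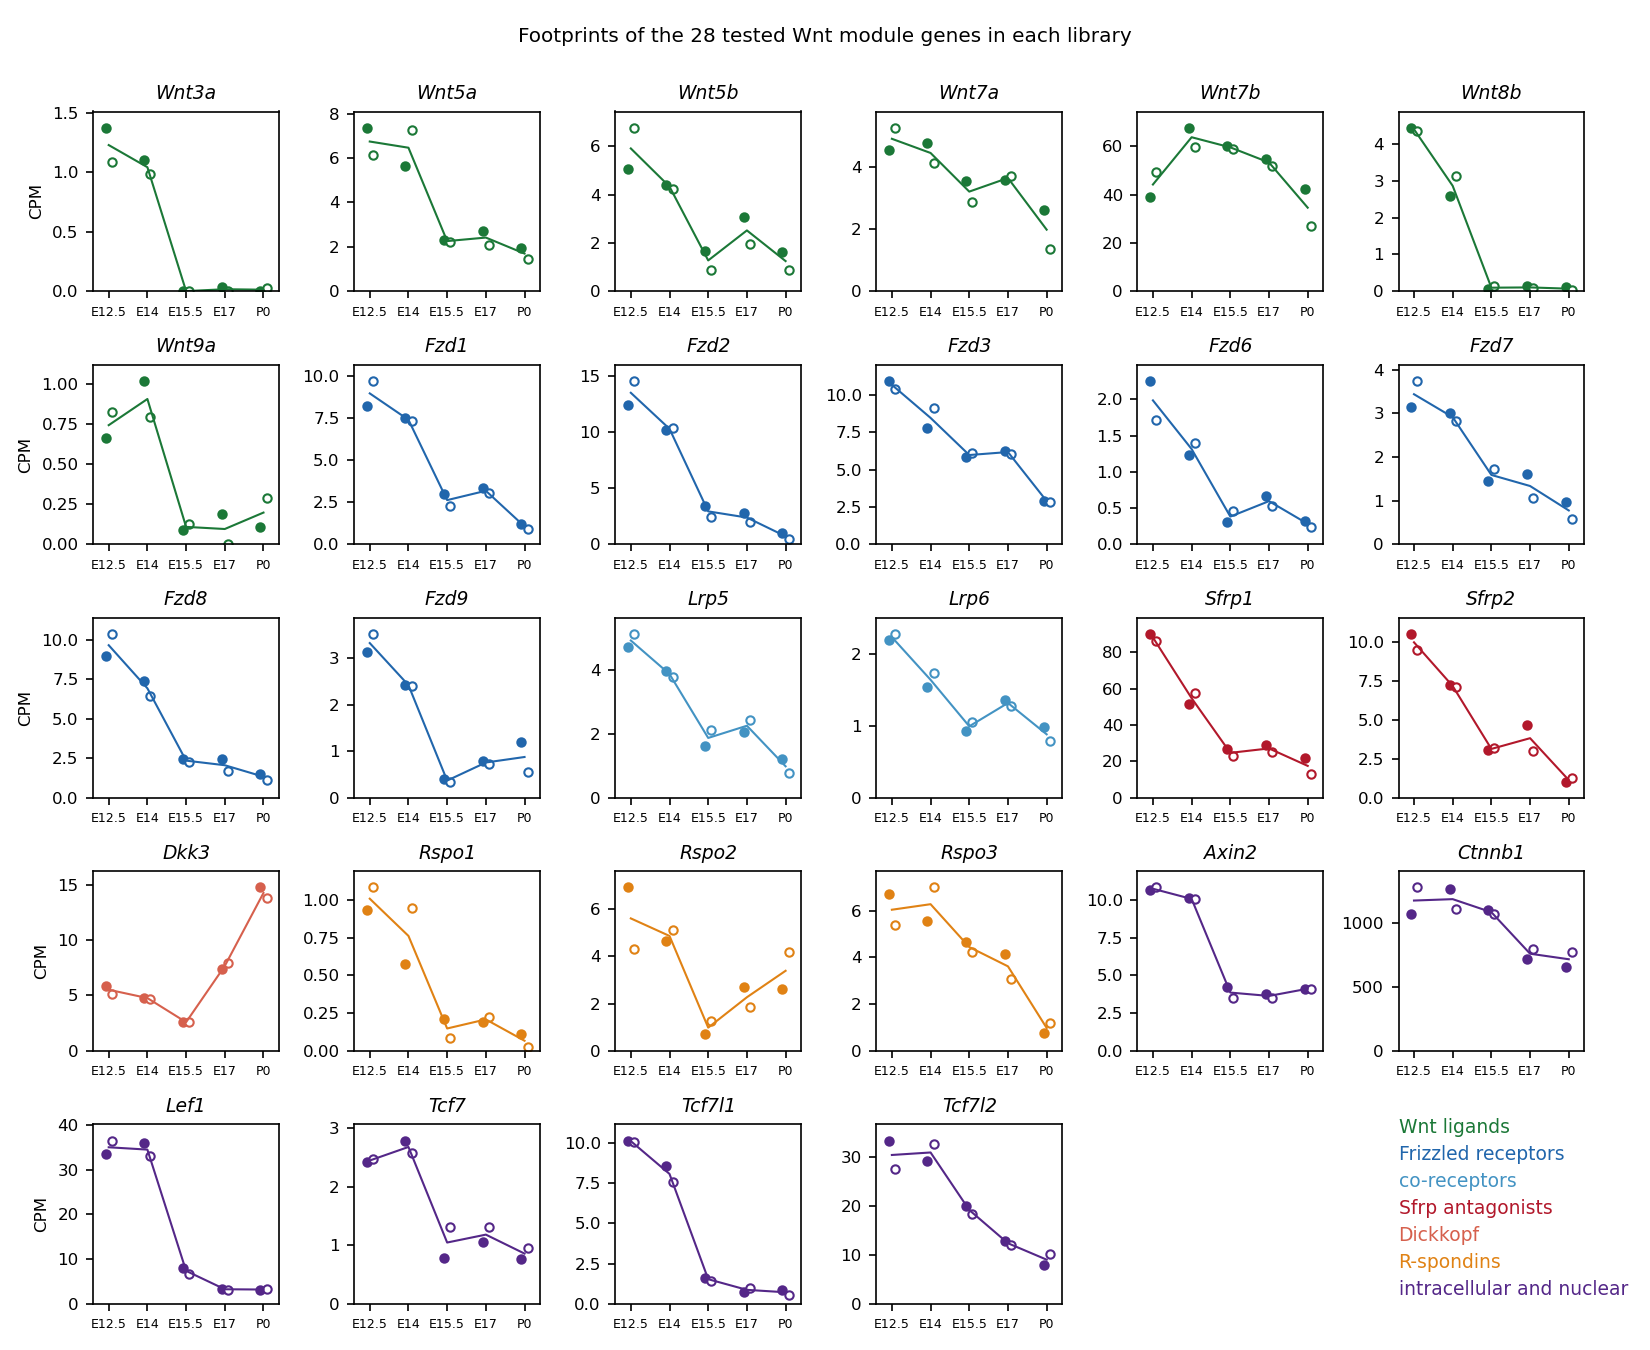
Footprint level in CPM (vertical axis, linear from 0, its own scale for each gene) against stage for the 28 tested genes. Filled circles are replicate 1, open circles are replicate 2 and the line joins stage means. Most genes drop between E14 and E15.5, whereas Dkk3 rises to 14.8 and 13.8 CPM at P0 and Wnt7b stays between 26.9 and 67.7 CPM.

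From E12.5 to P0 the tested genes moved mostly one way. At P0 against E12.5, 25 of the 28 were called lower and Dkk3 alone was called higher, where a call means a limma-voom adjusted p under 0.05 and a level at least 25% above that of the lower stage. The share called was 92.9%, against 62.1% of all 13484 genes tested (30.1% higher and 32% lower). The median log2 fold change was -2.42 over the 28 genes and -0.01 over all genes. Wnt7b and Rspo2 were the genes not called. Among the 15 that averaged 100 counts or more per library, 12 were called lower at E15.5 against E14 and 13 at P0 against E12.5, against 16.8% and 32.6% of all genes that did. In the moderated F test over the 5 stages 28 of 28 passed at an adjusted p under 0.05, against 63.8% of all genes. The adjusted p ran from 1.82e-06 for Lef1 to 0.015 for Wnt7b. These 28 and the 25 called lower include Rspo1, Wnt3a, Wnt8b and Wnt9a, which passed the filter only through E12.5 and E14.

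The fall was spread unevenly over the stages. At E14 against E12.5 none of the 28 was called by limma-voom, against 0.638% of all genes (0.497% higher and 0.141% lower). The unadjusted p was under 0.05 for 10 of the 28, and the share of all genes at that threshold was not counted. By edgeR 0 were called and by DESeq2 1, Sfrp1. Without one or the other P0 library 3 were called, Wnt7b higher and Sfrp1 and Wnt8b lower. At E15.5 against E14, 24 of 28 (85.7%) were called, all lower, against 36.1% of all genes called (16.5% higher and 19.6% lower). The median log2 fold change was -1.46, and the same with Wnt3a set at its floor of 3 counts, against -0.01 over all genes. Ctnnb1, Rspo3, Wnt7a and Wnt7b were the 4 that were not called. The 24 include Rspo1, Wnt3a, Wnt8b and Wnt9a, which passed the filter only through E12.5 and E14.

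The 2 later steps were smaller and less firm. At E17 against E15.5, 4 of 28 (14.3%) were called, against 9.04% of all genes (5.61% higher and 3.43% lower), with Dkk3 higher and Lef1, Tcf7l2 and Ctnnb1 lower. None of the 4 was called without E15.5 replicate 1, without E15.5 replicate 2 or without E17 replicate 2, 1 without E17 replicate 1, 2 without either E14 library, and 7 without P0 replicate 2. At P0 against E17, 11 of 28 (39.3%) were called, against 20.5% of all genes (9.46% higher and 11.1% lower), with Dkk3 higher and Fzd1, Fzd2, Fzd3, Lrp5, Rspo3, Sfrp1, Sfrp2, Wnt5b, Wnt7a and Wnt7b lower. The number was 3 without P0 replicate 2, 5 without E17 replicate 1 and 13 without P0 replicate 1, and 0 in a fit to these stages alone. P0 against E15.5, a comparison added after the data were seen, called 16 of 28 (57.1%) against 34% of all genes (17.1% higher and 17% lower), with Dkk3 and Rspo2 higher. The 14 lower genes ran from Ctnnb1 (log2 change -0.61) to Fzd2 (-2.49, and -1.53 without P0 replicate 2), and the others were Fzd1, Fzd3, Fzd7, Fzd8, Lef1, Lrp5, Rspo3, Sfrp2, Tcf7l1, Tcf7l2, Wnt7a and Wnt7b. Here the number was 8 without P0 replicate 2, where the falls of Fzd2, Fzd7 and Wnt7a became smaller by over 1.5 times, and 10 without E15.5 replicate 1. Adjacent steps share the libraries of the stage between them, so their values are set side by side below and are not independent of each other.

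Some calls were lost when a single library was left out. At E15.5 against E14, Fzd7 was lost without any one library of these stages (log2 changes of -0.74 to -0.996), and Fzd3 (-0.39 to -0.53) and Lrp6 (-0.64 to -0.81) without any of them but E14 replicate 1. Rspo1 was lost without E14 replicate 2 or either E15.5 library (-1.81 to -2.91), Tcf7l2 without E14 replicate 2 or E15.5 replicate 2 (-0.61 and -0.62), Wnt9a without either E15.5 library (-2.60 and -3.09) and Fzd6 without E15.5 replicate 1 (-1.47). Of these changes Rspo1 alone moved by over 1.5 times, to -2.91 without E15.5 replicate 1. The other 17 calls held without any one library. At P0 against E17, Dkk3 and Fzd3 were the calls that held without each library. Without E17 replicate 1 the calls of Fzd2, Rspo3, Sfrp1, Wnt5b, Wnt7a and Wnt7b were lost, and without P0 replicate 2 those of Dkk3 and Fzd3 alone remained of the 11. Without that library the falls of Fzd2, Wnt5b and Wnt7a became smaller by over 1.5 times, while those of Rspo3 and Sfrp2 became larger. For P0 against E12.5 the losses were Wnt9a, without any one library except those of E17, and Rspo1 and Tcf7, without P0 replicate 2. Leaving out P0 replicate 2 also made the falls of Fzd2, Fzd7, Fzd9, Rspo1, Wnt5b, Wnt7a and Wnt8b from E12.5 to P0 smaller by over 1.5 times and that of Wnt9a larger. At P0 against E15.5 Dkk3, Fzd3, Lef1, Rspo3 and Tcf7l2 were called without each library in turn.

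**Figure D2:**
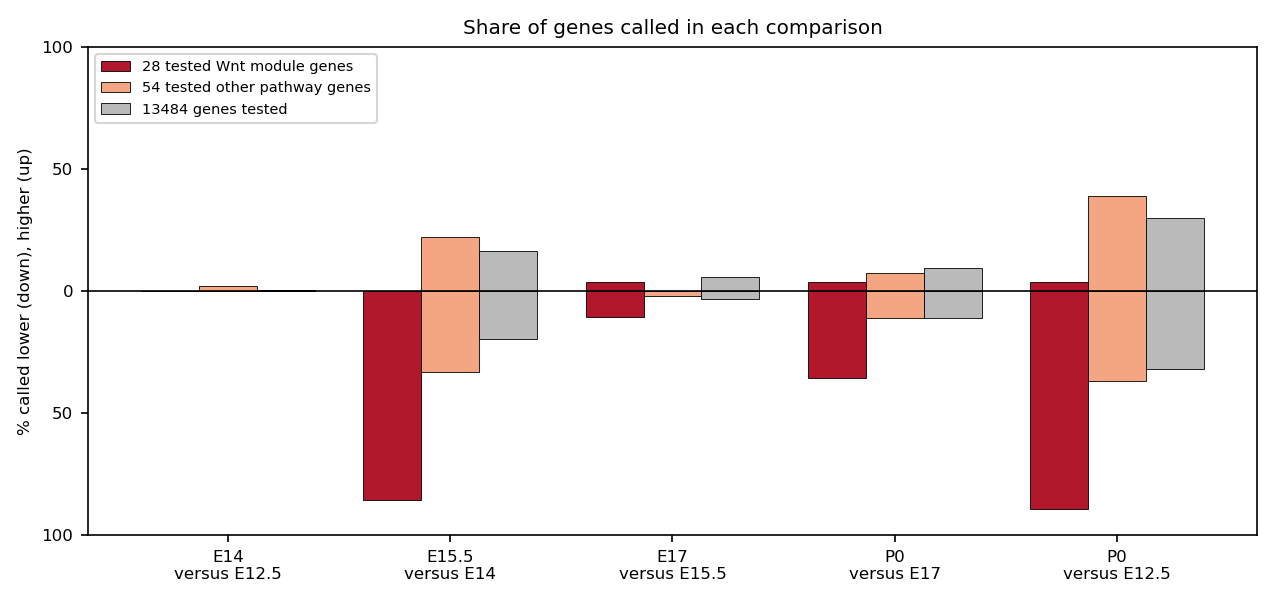
Percentage of genes called higher (above 0) and lower (below 0) in 5 comparisons between stages, for the 28 tested Wnt module genes, the 54 tested other genes of the pathway and all 13484 genes tested. The tested Wnt module genes were called lower at E15.5 against E14 in 24 cases and at P0 against E12.5 in 25 cases.

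**Figure D3:**
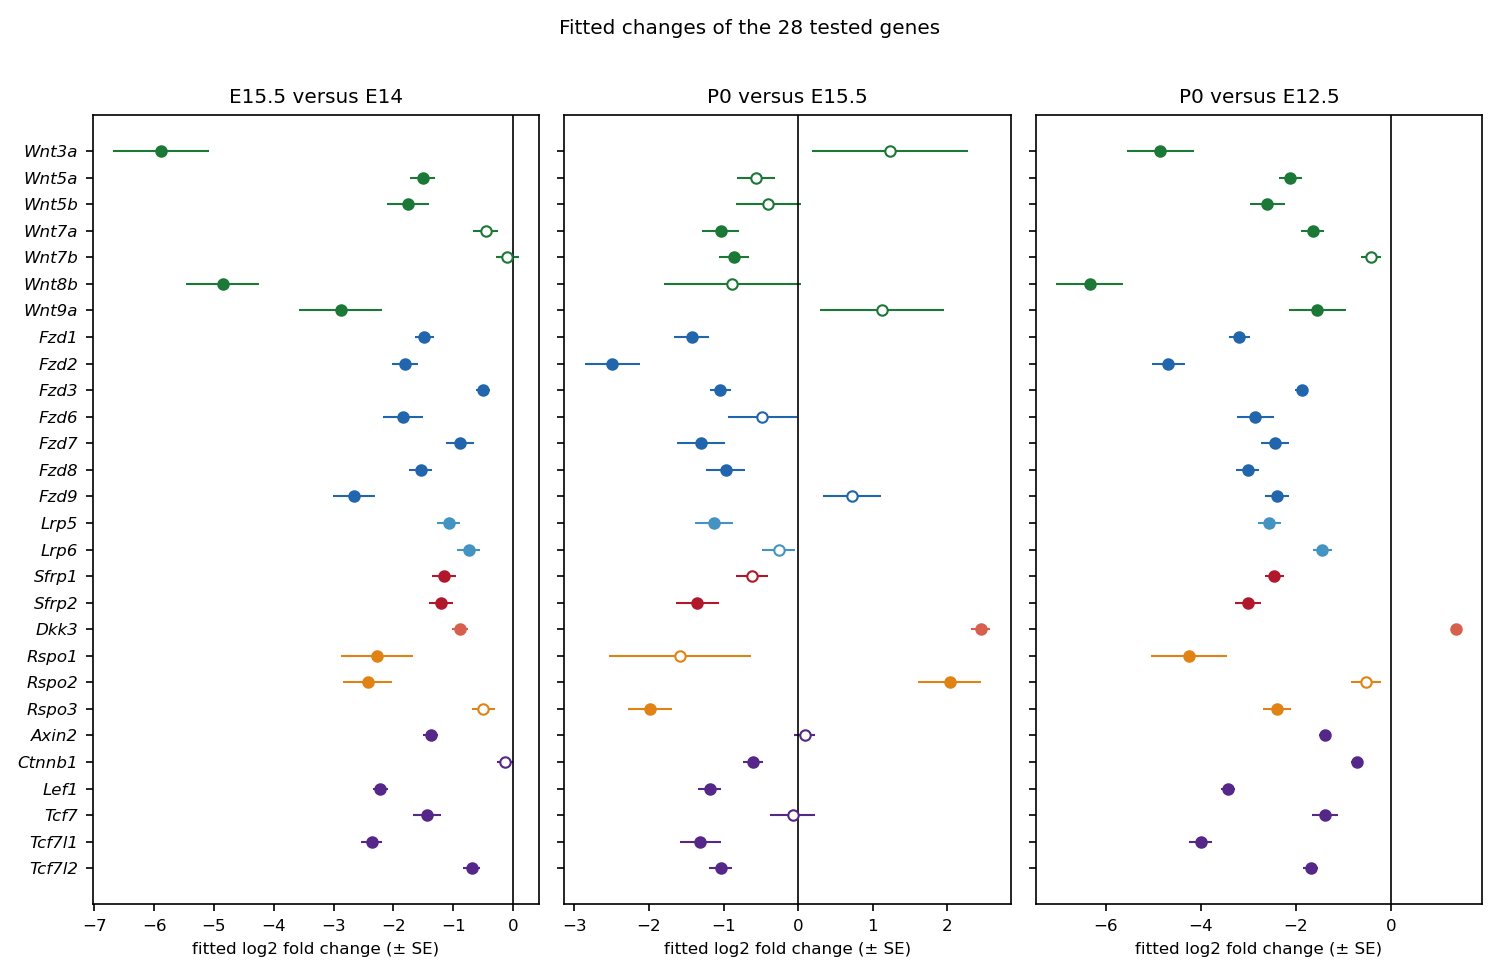
Fitted log2 fold change (horizontal axis, later minus earlier stage) with its SE for each of the 28 tested genes in 3 comparisons. Filled points were called and open points were not, and colours mark the role of the gene as in the plot of levels by library. At E15.5 against E14 all points lie below 0, and at P0 against E12.5 Dkk3 lies above 0.

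Markers of tissue next to the neocortex and of vessels fell at E15.5 against E14, where 19.6% of all genes were called lower. The 5 cortical hem markers (Lmx1a, Msx1, Msx2, Bmp4 and Gdf7) summed to between 10 and 10.8 CPM at E14 and 0.422 to 0.633 CPM at E15.5, and 4 of 4 tested were called lower. The 8 choroid plexus markers went from between 1156 and 1162 CPM to between 11.4 and 13.8 CPM, with 6 of 6 tested called lower and Cldn2 at 0 at E15.5. Within the E14 sum Ttr alone held 1079 and 1082 CPM. Kl, which was not tested, had 2 and 4 counts at E14 and 3 and 3 at E15.5. The 8 markers of meningeal fibroblasts went from between 65.9 and 74.7 to between 2.7 and 3.19 CPM and those of endothelium from between 27.8 and 37.1 to between 8.15 and 10 CPM, with 8 of 8 called lower in each. All 4 lists stayed below their E14 level at E17 and P0: hem 0.488 to 0.978, choroid plexus 5.49 to 14.3, meninges 3.43 to 7.9 and endothelium 6.39 to 16.9 CPM. At E12.5 the sums were hem 7.26 to 10.1, choroid plexus 286 to 345, meninges 102 to 104 and endothelium 38 to 39.3 CPM. From E12.5 to E14 the choroid plexus sum thus rose, with 3 of 6 tested markers called higher. Between E15.5 and E17 the meninges went up to between 4.92 and 7.9 CPM and endothelium to between 15.3 and 16.9 CPM. In each list 1 marker was called higher at that step. Endothelium was back at 6.39 to 9.89 CPM at P0, with 4 markers called lower than at E17. The part of these tissues and of vessels in the results below was not tested.

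Other cell classes shifted too. Of 8 radial glia markers 6 were called lower and 1 higher at E15.5 against E14. Their summed level was between 2121 and 2185 CPM at E14 and between 2111 and 2272 CPM at E15.5. Within it Fabp7 went from 1042 and 1071 to 1534 and 1721 CPM. Of 8 neuronal markers 8 were called higher, with a summed level that went from between 3069 and 3136 to between 6546 and 6835 CPM. The 7 markers of the ganglionic eminence went from between 29.1 and 33.3 to between 99.5 and 104 CPM, with 4 called higher. The thalamus list went from between 52.4 and 53.3 to between 5.91 and 8.04 CPM, and nearly all of that was Lhx9, which early cortical neurons also use. Of the other listed thalamic genes, Gbx2 and Olig3 had at most 3 counts in any library and Irx1 at most 5. Irx3 had up to 12, Barhl2 up to 13, Irx2 up to 24 and Shox2 up to 48. Shox2 had 19 and 18 counts in the E14 libraries and 10 and 2 in those of E15.5. Of 8 astrocyte markers 1 was called higher and 3 lower at this step, and 5 higher and 3 lower at P0 against E12.5. The part of these classes was not tested either.

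**Figure D4:**
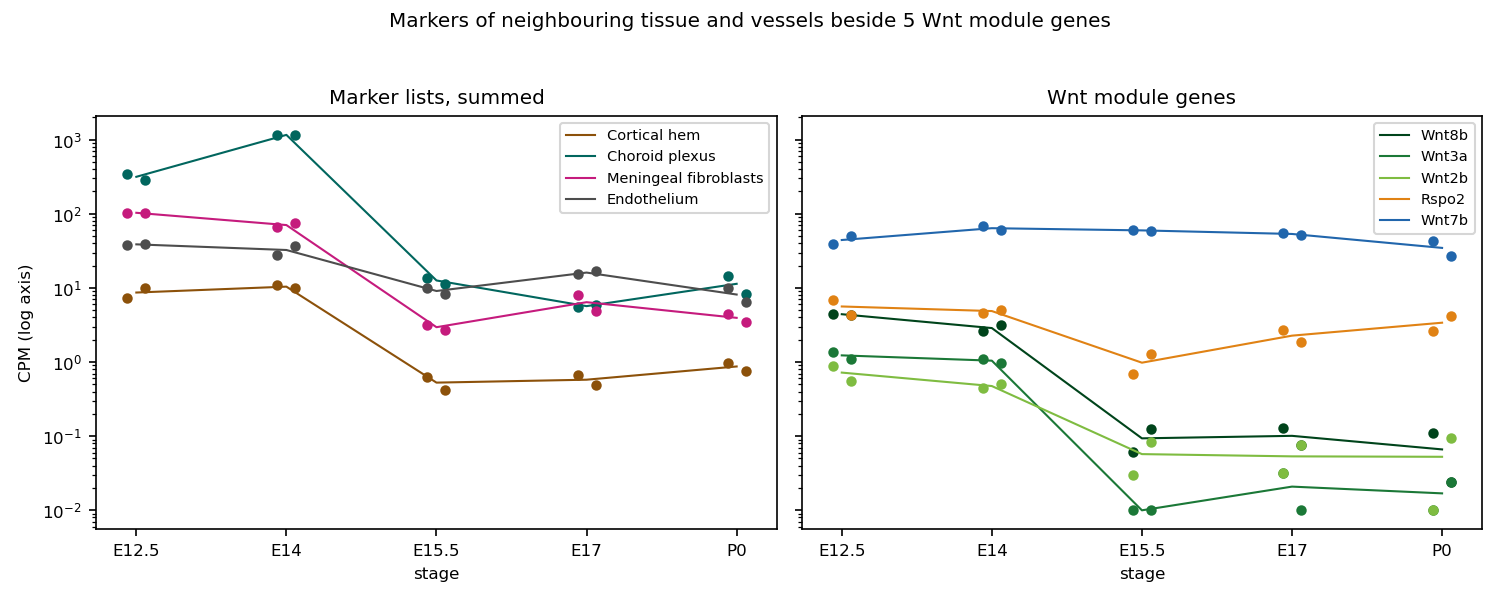
Summed CPM of 4 marker lists (left) and CPM of 5 Wnt module genes (right) against stage, on a shared log axis, with a point for each library and a line through stage means. A level of 0 is drawn at the lowest point of the right panel. The marker lists, Wnt8b, Wnt3a, Wnt2b and Rspo2 drop between E14 and E15.5, and Wnt7b stays between 26.9 and 67.7 CPM.

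Among the ligands, 3 that are known from the cortical hem, Wnt8b, Wnt3a and Wnt2b, were found mainly at the first stages, E12.5 and E14. Wnt8b (ENSMUSG00000036961) had 4.45 and 4.37 CPM in E12.5, 2.61 and 3.14 in E14, 0.0602 and 0.127 in E15.5, 0.127 and 0.0751 in E17 and 0.109 and 0.0238 in P0. Both libraries of E12.5 and E14 lay above all 6 later libraries, which held 2, 3, 4, 2, 1 and 1 counts. Wnt8b was lower at E15.5 than at E14 (log2 change -4.85 ± 0.61 SE, adjusted p = 0.000614). It passed the filter only through E12.5 and E14, so this adjusted p is description and no support. At P0 there were 2 counts against 198 at E12.5, which is 113-fold lower with a 95% counting interval of 30.8 to 937. Each P0 library held 1 of these counts, and the fitted log2 change of -6.34 moved to -4.76 when P0 replicate 2 was left out and to -6.95 when replicate 1 was.

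Wnt3a (ENSMUSG00000009900), a canonical ligand needed for the growth of the hippocampus from the medial cortex, had 25 and 29 counts in the E12.5 libraries and 25 and 31 in those of E14. The later libraries held 0 and 0 (E15.5), 1 and 0 (E17) and 0 and 1 (P0). No later library came near the early ones. With 0 of 2 libraries above 0 at E15.5, the level was at least 19.6-fold lower than at E14, taking 3 counts over both libraries as the floor (adjusted p = 0.000955). At P0 the 1 count against 54 at E12.5 gave a level 61.4-fold lower with an interval of 10.6 to 2470. Wnt2b, the third of these ligands, missed the filter with 16 and 15 counts in the E12.5 libraries, 10 and 16 in E14 and 0 to 4 in each later library. The hem markers given above fell at the same step as these 3 ligands, which are not all the ligands made in the hem.

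Wnt5a and Wnt5b are close relatives that act mostly without beta-catenin, Wnt5a through Ror2 and Ryk. Wnt5a had 7.37 and 6.13 CPM in E12.5, 5.65 and 7.29 in E14, 2.32 and 2.2 in E15.5, 2.73 and 2.1 in E17 and 1.96 and 1.43 in P0. The libraries of E12.5 and E14 were all above those of the 3 later stages, and the fall at E15.5 was called (log2 change -1.51 ± 0.21 SE, adjusted p = 0.000933). Wnt5b had 5.06 and 6.77 CPM in E12.5, 4.42 and 4.25 in E14, 1.66 and 0.887 in E15.5, 3.08 and 1.95 in E17 and 1.63 and 0.859 in P0. It fell at the same step (log2 change -1.75 ± 0.35 SE, adjusted p = 0.00571) and was higher in both E17 libraries than in the E15.5 libraries without being called. Wnt5b was called lower at P0 than at E17 (log2 change -1.35 ± 0.39 SE, adjusted p = 0.0425), but with -0.57 and adjusted p = 0.542 without P0 replicate 2, and it was not called there by edgeR or DESeq2. Its log2 change of -2.60 at P0 against E12.5 was -1.82 without P0 replicate 2 (adjusted p = 0.0364).

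Wnt9a was the tested ligand with the fewest footprints at its highest stage, 48. It passed the filter only through E12.5 and E14, so its adjusted p-values against later stages are description. It had 12 and 22 counts in E12.5 libraries, 23 and 25 in E14, 3 and 3 in E15.5, 6 and 0 in E17 and 1 and 12 in P0 libraries. In CPM the E12.5 and E14 libraries were above the later ones, with 0.66 in E12.5 replicate 1 and 0.286 in P0 replicate 2, which both held 12 counts. The change at E15.5 against E14 was called (log2 change -2.88 ± 0.70 SE, adjusted p = 0.0132), but not without E15.5 replicate 1 (-2.60, adjusted p = 0.117) or replicate 2 (-3.09, adjusted p = 0.0748). The log2 change at P0 against E12.5 was -1.55 with adjusted p = 0.0479, and -2.25 with adjusted p = 0.185 without P0 replicate 2. The adjusted p was also above the threshold by edgeR, by DESeq2 and with total counts alone.

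Wnt7a and Wnt7b, a pair of related ligands of neural progenitors and neurons that signal to brain endothelium through Adgra2 and Reck, followed another course. Wnt7b (ENSMUSG00000022382) had 39 and 49.4 CPM in E12.5, 67.7 and 59.9 in E14, 60.1 and 59.1 in E15.5, 55 and 51.8 in E17 and 42.3 and 26.9 in P0. The highest stage mean was that of E14, which overlapped with E15.5, and the P0 libraries overlapped with those of E12.5. The change at E15.5 against E14 was -0.09 (SE 0.19, adjusted p = 0.747) and that at P0 against E12.5 was -0.43 (SE 0.20, adjusted p = 0.0998), and neither was called. The latter was -0.71 without P0 replicate 1, which passed (adjusted p = 0.00248), -0.06 without P0 replicate 2, and 0.10 with total counts alone. Wnt7b was called lower at P0 than at E17 (log2 change -0.70 ± 0.20 SE, adjusted p = 0.0416), with -0.33 without P0 replicate 2. It was not called there by edgeR (adjusted p = 0.067), by DESeq2 (adjusted p = 0.0509) or with total counts alone (adjusted p = 0.0695). The call was also lost without any one library except P0 replicate 1 (log2 changes of -0.33 to -0.74).

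Wnt7a had 4.56 and 5.27 CPM in E12.5, 4.77 and 4.15 in E14, 3.55 and 2.87 in E15.5, 3.59 and 3.72 in E17 and 2.61 and 1.36 in P0. Both E15.5 libraries were below both E14 libraries, yet the change was not called (log2 change -0.45 ± 0.21 SE, adjusted p = 0.129). P0 was called lower than E12.5 (log2 change -1.65 ± 0.25 SE, adjusted p = 0.000535), with -0.90 and adjusted p = 0.0289 without P0 replicate 2. It was also called lower than E17 (log2 change -1.22 ± 0.25 SE, adjusted p = 0.0129), the latter with -0.46 and adjusted p = 0.273 without P0 replicate 2. The ratio of Wnt7b to Wnt7a counts was 8.55 and 9.38 at E12.5, 14.2 and 14.4 at E14, and between 13.9 and 20.6 in the 6 later libraries, so it was lowest in both E12.5 libraries.

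With most other ligands low, Wnt7b took a larger share of the ligand footprints from E15.5 on than before. Its share of all Wnt counts, not corrected for length, started from 60.8% and 65.4% (E12.5) and 76.4% and 73.6% (E14). It was 88.2% and 90% in the E15.5 libraries, 83.5% and 86.1% in E17 and 85.9% and 84.8% in P0. The share was higher in all 6 later libraries than in any of the 4 early ones. The summed level of the other 18 ligands was 25.2 and 26.1 CPM in the E12.5 libraries, 21 and 21.5 in E14, 8.04 and 6.54 in E15.5, 10.9 and 8.33 in E17 and 6.96 and 4.84 in P0.

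**Figure D5:**
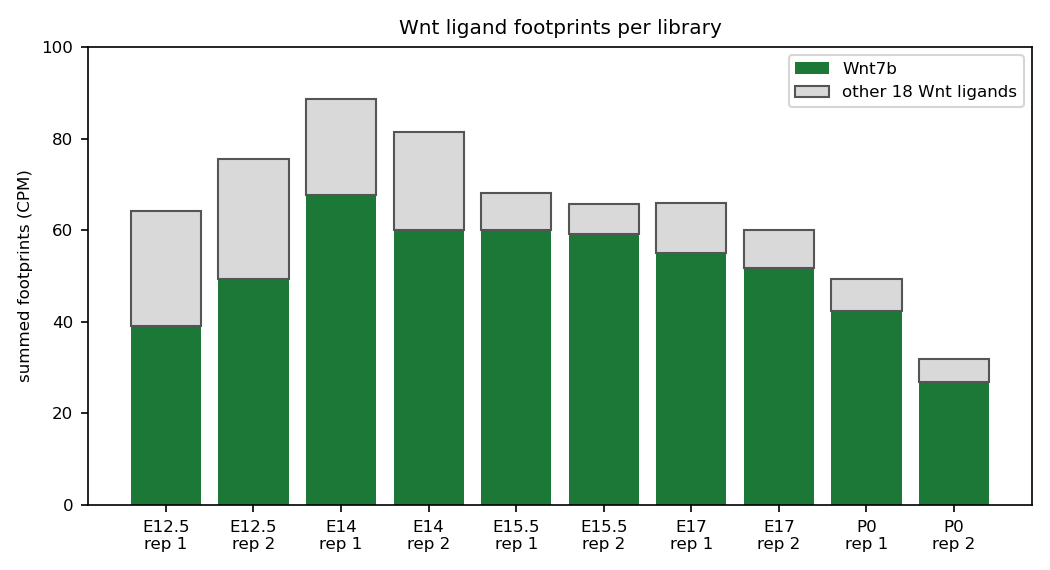
Summed CPM of the 19 Wnt ligands in each library, with Wnt7b in green and the other 18 ligands in grey. CPM is not corrected for length. The grey part lies between 21 and 26.1 CPM at E12.5 and E14 and between 4.84 and 10.9 CPM later.

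All 7 tested Frizzled receptors were called lower at E15.5 than at E14 and at P0 than at E12.5, against 19.6% and 32% of all genes. The median log2 fold changes were -1.54 and -2.85. Fzd6 and Fzd9 held 21 footprints each at E15.5, below the 32 of the filter. Fzd1, Fzd2 and Fzd7 form the most closely related group. Fzd2 had 12.4807 and 14.6 CPM in E12.5, 10.2 and 10.4 in E14, 3.43 and 2.45 in E15.5, 2.79 and 1.99 in E17 and 0.978 and 0.453 in P0. The stage means went down at each step, and of adjacent stages only E15.5 and E17 overlapped. Fzd2 was lower at E15.5 than at E14 (log2 change -1.80 ± 0.22 SE, adjusted p = 0.00052) and at P0 than at E17 (log2 change -2.18 ± 0.38 SE, adjusted p = 0.00683), the latter with -1.22 and adjusted p = 0.205 without P0 replicate 2. At P0 it was 25.7-fold lower than at E12.5 (log2 change -4.68 ± 0.36 SE, adjusted p = 1.15e-05), and 13.2-fold lower without P0 replicate 2 (log2 change -3.72, adjusted p = 0.00151).

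Fzd1 had 8.25 and 9.72 CPM in E12.5, 7.51 and 7.32 in E14, 2.98 and 2.28 in E15.5, 3.33 and 3.04 in E17 and 1.2 and 0.93 in P0. The E15.5 and E17 libraries formed a middle level between the early stages and P0. Fzd1 fell at E15.5 (log2 change -1.48 ± 0.17 SE, adjusted p = 0.000392) and at P0 against E17 (log2 change -1.70 ± 0.23 SE, adjusted p = 0.00312), the latter with -1.36 and adjusted p = 0.0576 without P0 replicate 2. Fzd7 had 3.13 and 3.74 CPM in E12.5, 3 and 2.82 in E14, 1.45 and 1.73 in E15.5, 1.62 and 1.05 in E17 and 0.978 and 0.572 in P0. It was lower at P0 than at E12.5 (log2 change -2.44 ± 0.30 SE, adjusted p = 0.000177), with -1.76 and adjusted p = 0.0245 without P0 replicate 2. Its smaller change at E15.5 against E14 (log2 change -0.89 ± 0.23 SE, adjusted p = 0.0173) was not called by DESeq2 or with total counts alone.

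Fzd8, a receptor of the Fzd5 and Fzd8 group found in the early forebrain, had 8.96 and 10.4 CPM in E12.5, 7.42 and 6.43 in E14, 2.44 and 2.24 in E15.5, 2.44 and 1.65 in E17 and 1.52 and 1.12 in P0. The early libraries were all above the late ones, and the fall at E15.5 was called (log2 change -1.54 ± 0.20 SE, adjusted p = 0.00068). Fzd9 had 3.13 and 3.51 CPM in E12.5, 2.43 and 2.41 in E14, 0.392 and 0.338 in E15.5, 0.794 and 0.713 in E17 and 1.2 and 0.549 in P0. Its lowest libraries were those of E15.5 rather than P0, and the fall from E14 was called (log2 change -2.66 ± 0.35 SE, adjusted p = 0.000741). At P0 against E12.5 the Fzd9 change (log2 change -2.40 ± 0.26 SE, adjusted p = 7.69e-05) was -1.43 without P0 replicate 2.

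Fzd3 and Fzd6 are receptors of the planar polarity branch, and Fzd3 is needed for major axon tracts of the forebrain. Fzd3 had 10.9 and 10.4 CPM in E12.5, 7.82 and 9.12 in E14, 5.84 and 6.12 in E15.5, 6.29 and 6.08 in E17 and 2.94 and 2.86 in P0. It changed least of the tested Frizzled genes at E15.5 against E14 (log2 change -0.51 ± 0.12 SE, adjusted p = 0.0114), a call lost with DESeq2 and with total counts alone. It fell again at P0 against E17 (log2 change -1.10 ± 0.14 SE, adjusted p = 0.00251), a call kept without P0 replicate 2. Fzd6 had 2.25 and 1.72 CPM in E12.5, 1.24 and 1.39 in E14, 0.301 and 0.464 in E15.5, 0.667 and 0.525 in E17 and 0.326 and 0.238 in P0. It was lower at E15.5 than at E14 (log2 change -1.84 ± 0.34 SE, adjusted p = 0.00401), with -1.47 and adjusted p = 0.059 without E15.5 replicate 1.

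Both co-receptors were called lower at E15.5 than at E14, against 19.6% of all genes, with a median log2 fold change of -0.91. Lrp5 had 4.73 and 5.12 CPM in E12.5, 3.97 and 3.77 in E14, 1.63 and 2.11 in E15.5, 2.06 and 2.44 in E17 and 1.2 and 0.763 in P0. It was lower at E15.5 than at E14 (log2 change -1.08 ± 0.19 SE, adjusted p = 0.00297) and at P0 than at E17 (log2 change -1.42 ± 0.25 SE, adjusted p = 0.00684), the latter with -0.85 and adjusted p = 0.171 without P0 replicate 2. Lrp6, the co-receptor that most embryonic Wnt signalling relies on, had 2.2 and 2.28 CPM in E12.5, 1.55 and 1.74 in E14, 0.934 and 1.06 in E15.5, 1.36 and 1.28 in E17 and 0.978 and 0.787 in P0. The early libraries lay above the late ones, with a change at E15.5 (log2 change -0.74 ± 0.19 SE, adjusted p = 0.0163) that was not called by DESeq2 or with total counts alone.

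Sfrp1 and Sfrp2 are secreted Wnt-binding proteins made by cortical progenitors. Sfrp1 had 90.1 and 86.4 CPM in E12.5, 51.6 and 57.9 in E14, 26.6 and 22.7 in E15.5, 28.9 and 25.2 in E17 and 21.7 and 13.1 in P0. Its level was highest in both E12.5 libraries, and the E14 libraries lay between these and the rest. The change at E14 against E12.5 was -0.69 (SE 0.19, adjusted p = 0.133) and was called by DESeq2 but not by limma-voom or edgeR. Sfrp1 was called lower at E15.5 than at E14 (log2 change -1.15 ± 0.20 SE, adjusted p = 0.00269) and was 5.49-fold lower at P0 than at E12.5 (log2 change -2.46 ± 0.21 SE, adjusted p = 1.92e-05). At P0 against E17 it was called (log2 change -0.75 ± 0.21 SE, adjusted p = 0.0388), with -0.31 without P0 replicate 2. Sfrp1 was not called there by edgeR (adjusted p = 0.0668), by DESeq2 (adjusted p = 0.0509) or with total counts alone (adjusted p = 0.0739). The call was also lost without any one library except P0 replicate 1 (log2 changes of -0.31 to -0.84).

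Sfrp2 had 10.5 and 9.46 CPM in E12.5, 7.24 and 7.1 in E14, 3.04 and 3.21 in E15.5, 4.67 and 2.97 in E17 and 0.978 and 1.26 in P0. The P0 libraries were below all others. Sfrp2 fell at E15.5 (log2 change -1.20 ± 0.20 SE, adjusted p = 0.00242) and at P0 against E17 (log2 change -1.62 ± 0.28 SE, adjusted p = 0.00684), the latter with a larger fall of -1.87 but adjusted p = 0.0675 without P0 replicate 2. Of 8 radial glia markers 6 were called lower and 2 higher at P0 against E12.5, beside these genes, and their part was not tested.

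Dkk3 (ENSMUSG00000030772), a divergent Dickkopf protein that is not an inhibitor of Lrp5 or Lrp6 in the manner of Dkk1, was the gene that was higher at P0 than at E12.5. Dkk3 had 5.88 and 5.16 CPM in E12.5, 4.81 and 4.72 in E14, 2.59 and 2.58 in E15.5, 7.43 and 7.92 in E17 and 14.8 and 13.8 in P0. Both E15.5 libraries were the lowest, and both P0 libraries were above all others. It was called lower at E15.5 than at E14 (log2 change -0.88 ± 0.14 SE, adjusted p = 0.00163) and higher at E17 than at E15.5 (log2 change 1.56 ± 0.13 SE, adjusted p = 0.00533). The second call was lost without E15.5 replicate 1 (adjusted p = 0.121), E15.5 replicate 2 (adjusted p = 0.0714) or E17 replicate 2 (adjusted p = 0.0741), where the log2 changes were 1.56, 1.55 and 1.52. Dkk3 rose again at P0 against E17 (log2 change 0.89 ± 0.11 SE, adjusted p = 0.00233), also without P0 replicate 2, and was 5.46-fold higher at P0 than at E15.5 and 2.58-fold higher than at E12.5 (log2 change 1.37 ± 0.12 SE, adjusted p = 2.31e-05). At P0 against E12.5, 8 of 8 neuronal markers were called higher, and of 8 astrocyte markers 5 were called higher and 3 lower. The part of these markers' cells in the rise of Dkk3 was not tested.

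The R-spondins, which bind Lgr receptors and the ligases Znrf3 and Rnf43, each had their own course. Rspo2 had 6.93 and 4.3 CPM in E12.5, 4.64 and 5.1 in E14, 0.693 and 1.27 in E15.5, 2.7 and 1.84 in E17 and 2.61 and 4.17 in P0. It was lowest in both E15.5 libraries. It fell at E15.5 (log2 change -2.43 ± 0.40 SE, adjusted p = 0.00241) and was higher at P0 than at E15.5 (log2 change 2.03 ± 0.43 SE, adjusted p = 0.00769), with 1.56 and adjusted p = 0.0687 without P0 replicate 2. At P0 against E12.5 it was not called (log2 change -0.53 ± 0.32 SE, adjusted p = 0.173).

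Rspo3 had 6.71 and 5.38 CPM in E12.5, 5.56 and 7 in E14, 4.67 and 4.22 in E15.5, 4.16 and 3.08 in E17 and 0.761 and 1.19 in P0. The 8 embryonic libraries were all above the P0 libraries. The change at E15.5 against E14 was not called (log2 change -0.50 ± 0.20 SE, adjusted p = 0.0809), and P0 was lower than E17 (log2 change -1.68 ± 0.30 SE, adjusted p = 0.00758), with a larger fall of -2.15 but adjusted p = 0.065 without P0 replicate 2. P0 was also lower than E12.5 (log2 change -2.40 ± 0.30 SE, adjusted p = 0.000171). Rspo1 had 17 and 29 counts in E12.5 libraries, 13 and 30 in E14, 7 and 2 in E15.5, 6 and 6 in E17 and 1 and 1 in P0 libraries. It passed the filter only through E12.5 and E14, so its adjusted p-values against later stages are description. The early libraries lay above the late ones, and the fall at E15.5 was called (log2 change -2.27 ± 0.60 SE, adjusted p = 0.0194) but not without E14 replicate 2 or either E15.5 library. At P0 the 2 counts against 46 at E12.5 gave a level 26.2-fold lower with an interval of 6.84 to 223, and the fitted log2 change of -4.26 moved to -2.68 and was no longer called once P0 replicate 2 was left out (adjusted p = 0.0832), and to -4.87 with replicate 1 left out instead.

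Inside the cell, all 6 genes were called lower at P0 than at E12.5, against 32% of all genes. Lef1 (ENSMUSG00000027985), a DNA-binding partner of beta-catenin, had 33.5 and 36.5 CPM in E12.5, 35.9 and 32.9 in E14, 8.04 and 6.71 in E15.5, 3.43 and 3.12 in E17 and 3.15 and 3.27 in P0. It dropped at E15.5 and again at E17, with no overlap between early, E15.5 and later libraries. Lef1 was 4.65-fold lower at E15.5 than at E14 (log2 change -2.22 ± 0.12 SE, adjusted p = 4.43e-05) and was called lower at E17 than at E15.5 (log2 change -1.17 ± 0.14 SE, adjusted p = 0.00743), a call lost without any of the 4 libraries of these stages (log2 changes of -1.03 to -1.30, adjusted p 0.0617 to 0.121). At P0 against E12.5 it was 10.7-fold lower (log2 change -3.42 ± 0.15 SE, adjusted p = 7.76e-07).

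Tcf7l1, mostly a repressor in this family, had 10.1 and 10.1 CPM in E12.5, 8.57 and 7.54 in E14, 1.63 and 1.44 in E15.5, 0.73 and 1.01 in E17 and 0.87 and 0.572 in P0. The 4 early libraries were all above the 6 later ones, with a fall at E15.5 (log2 change -2.36 ± 0.18 SE, adjusted p = 9.65e-05). Tcf7l2, the family member found in many neurons outside the cortex, had 33.4 and 27.6 CPM in E12.5, 29.3 and 32.7 in E14, 20.1 and 18.4 in E15.5, 12.8 and 12 in E17 and 7.94 and 10.2 in P0. It fell at E15.5 (log2 change -0.69 ± 0.14 SE, adjusted p = 0.00623), a call lost with total counts alone (adjusted p = 0.0595) and without E14 replicate 2 or E15.5 replicate 2. At E17 against E15.5 it was called (log2 change -0.63 ± 0.15 SE, adjusted p = 0.0361), a call lost without any library of E14, E15.5 or E17 (log2 changes of -0.56 to -0.70). The ratio of Lef1 to Tcf7l2 counts was 1.0 and 1.32 at E12.5 and 1.23 and 1.01 at E14, and from 0.259 to 0.4 in the 6 later libraries.

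Tcf7 had 2.42 and 2.47 CPM in E12.5, 2.78 and 2.57 in E14, 0.783 and 1.31 in E15.5, 1.05 and 1.31 in E17 and 0.761 and 0.954 in P0. All 4 early libraries were above the 6 later ones, with a fall at E15.5 (log2 change -1.44 ± 0.24 SE, adjusted p = 0.00232), and the call at P0 against E12.5 (log2 change -1.39 ± 0.27 SE, adjusted p = 0.00218) was lost without P0 replicate 2 (-1.60, adjusted p = 0.0522). Axin2, a scaffold of the destruction complex and a direct target of the canonical branch, had 10.7 and 10.8 CPM in E12.5, 10.1 and 10 in E14, 4.22 and 3.5 in E15.5, 3.75 and 3.53 in E17 and 4.13 and 4.1 in P0. It stepped down once, at E15.5 (log2 change -1.38 ± 0.12 SE, adjusted p = 0.000151), and the 6 later libraries stayed between 3.5 and 4.22 CPM. At P0 against E15.5 its log2 fold change was 0.09 (SE 0.14, adjusted p = 0.647).

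Ctnnb1 encodes beta-catenin, which also holds cadherins at cell contacts. It had 1076 and 1282 CPM in E12.5, 1268 and 1112 in E14, 1104 and 1071 in E15.5, 723 and 801 in E17 and 660 and 776 in P0. The E17 and P0 libraries lay below all earlier ones. The change at E15.5 against E14 was -0.13 (SE 0.13, adjusted p = 0.49) and was not called, and that at E17 against E15.5 was called (log2 change -0.51 ± 0.13 SE, adjusted p = 0.0473) but lost in edgeR (adjusted p = 0.0565) and without any one of the embryonic libraries (log2 changes of -0.44 to -0.59, adjusted p 0.0589 to 0.265). At P0 against E12.5 it was 1.64-fold lower (log2 change -0.72 ± 0.13 SE, adjusted p = 0.00152), and -0.19 with adjusted p = 0.182 when total counts alone were used.

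The TCF/LEF core motif CTTTGAT, which reads ATCAAAG on the other strand, was looked for in the promoters of these genes, from 250 bases before to 50 after the start, because most tested genes fell together and the nuclear proteins among them bind this motif. RefSeq promoters of build GRCm38.p6 were found for 33 of the 49 genes, and 2 of them (6.06%) held the motif in a promoter window, against 4.29% of all 27025 genes. Counted by window, as a gene can have several, it was in 4.76% of 42 windows of these genes and 3.73% of all 32851 windows. They are shown 5′ to 3′ along the gene with the motif in capitals, Wnt5b at chr6:119449439-119449468 on the minus strand and Wnt11 at chr7:98835050-98835079 on the plus strand.
Wnt5b: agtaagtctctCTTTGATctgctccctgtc
Wnt11: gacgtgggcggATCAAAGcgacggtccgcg
The motif lay 71 bases before the start in the Wnt5b window, which is not its outermost start, and 51 bases before the start on the opposite strand in Wnt11. The levels of Wnt5b are given above, and Wnt11 was not tested. A match is a description of letters in this window.

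The rest of the pathway held genes that moved in both directions. Of 64 listed genes of secretion, receptors, inhibitors, cytoplasm, nucleus, targets and planar polarity, 54 were tested, and at P0 against E12.5 21 were called higher and 20 lower (75.9% called, against 62.1% of all genes). At E15.5 against E14, 12 were higher and 18 lower (55.6% called, against 36.1% of all genes), with a median log2 fold change of 0.07. The counts by role that follow are at P0 against E12.5, where 30.1% of all genes were higher and 32% lower. At the receptor level 0 were higher and 6 of 7 lower, among secreted inhibitors 0 were higher and 2 of 3 lower, and of 2 secretion genes 1 was lower. In the cytoplasm 11 of 19 were higher and 3 lower, in the nucleus 5 of 10 were higher and 2 lower, among targets 1 of 4 was higher and 2 lower, and in planar polarity 4 of 9 were higher and 4 lower.

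Among pathway genes that averaged 100 counts or more, the largest called falls were in Wls, which carries Wnts to the cell surface (log2 change -3.0, from a mean of 34.3 to 4.36 CPM), and Ptk7, a planar polarity co-receptor (-2.86, from 9.4 to 1.42 CPM). Ccnd1, a cyclin of the G1 phase (-2.33, from 32.4 to 6.46 CPM), and Nkd1, a feedback inhibitor (-2.18, from 16.6 to 3.79 CPM), came next. The largest rises were in Prickle2 (3.35, from 2.27 to 23.6 CPM) and Prickle1 (2.04, from 1.88 to 7.39 CPM), of the planar polarity branch, Myc (2.16, from 28.3 to 126 CPM), a transcription factor, and Apc2 (1.77, from 10.9 to 38.4 CPM), a neuronal relative of Apc.

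The untested genes were mostly near 0. Wnt10b had 0 counts in all 10 libraries, and Wnt1, Wnt8a, Wnt9b, Dkk4 and Rspo4 had 1 to 3 in all. Wnt2b and Fzd4 came nearest to the filter with 31 footprints at their highest stage. Fzd4, the receptor for norrin in vessels, had 11 and 15 counts in E12.5 libraries, 13 and 18 in E14, 6 and 3 in E15.5, 11 and 6 in E17 and 1 and 5 in P0 libraries. The other untested ligands (Wnt2, Wnt3, Wnt4, Wnt6, Wnt10a, Wnt11 and Wnt16) had 8 to 47 counts in all, Fzd5 and Fzd10 had 41 and 61, Sfrp4 and Sfrp5 48 and 9, and Dkk1 and Dkk2 20 and 58. At this depth a change in these genes was mostly not detectable.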

How the data were processed

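The authors deposited a table of whole-number footprint counts per gene, 1 column per library and not normalized. Per the study's methods, duplicate, ribosomal and other noncoding reads were removed and the rest aligned with STAR to GENCODE M12, and reads with several matches stayed in. Isoform abundance then came from DeepShape-prime, and gene counts corrected for length from tximport. Whether the deposited whole numbers came from these is not given in the sources used here, so they may be rounded model estimates, and genes with close copies are uncertain. Of 22373 identifiers, 22274 matched a symbol.

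The test was limma-voom, which the study also names (limma 3.58.1, R 4.3.3), with TMM factors from edgeR 4.0.16. A gene needed 32 footprints over both libraries of some stage, which left 13484 genes, and 1 fit covered all 10 libraries. Two-sided p-values were adjusted by the Benjamini-Hochberg method across these genes. Each stage was compared with the one before it, and P0 with E12.5. P0 against E15.5 was added after seeing the data. Alternatives were edgeR's quasi-likelihood test, DESeq2 1.42.0, total counts alone, no filter, sample quality weights, the replicate number as a block, only the stages compared and leaving out each library. Genes, lists and markers were chosen with earlier results of these data known. Members called in any planned comparison are given per library, and up to 4 rises and 4 falls of other pathway genes are named. A part of this rule that needs levels per coding length was not applied, as no coding lengths were at hand. Counting intervals (95%) and floors (3 counts) cover counting error only.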

Additional observations from a re-analysis of the deposited data

How the results depend on the processing

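The number of tested Wnt module genes called at E15.5 against E14, at P0 against E12.5 and over the 5 stages stayed within 1.5 times the reported count in each alternative, and ranged from 18 to 26, from 23 to 26 and from 28 to 28 when 1 library was left out. At E14 against E12.5, 1 was called by DESeq2 and 1 with sample quality weights, and 0 to 3 without 1 library. At E17 against E15.5 the count was 2 without a filter, 8 with quality weights, 7 in a fit to those stages alone, and 0 to 7 without 1 library. At P0 against E17 it was 7 by DESeq2 and 8 by edgeR, both fitted to all 10 libraries, and 1 with quality weights. It was 0 in a limma-voom fit to those stages alone (13 at an unadjusted p under 0.05), and it moved without 1 library as given above. At P0 against E15.5 it was 6 with quality weights, 9 in a fit to those stages alone and 8 to 17 without 1 library. Of the other pathway genes, 27 were called at P0 against E12.5 in a fit to those stages alone and 32 to 41 without 1 library. Shares of all genes, called or at an unadjusted p under 0.05, were not counted under these alternatives. A move of these counts can therefore not be told from a move of all genes. The causes were not tested.

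Of the values of single genes under the alternatives, 1230 kept their direction and side of the threshold, 179 no longer passed, 1 newly passed and 1 reversed, which was Wnt7b at P0 against E12.5, at 0.10 with total counts alone (adjusted p = 0.687). Total counts alone moved the median of all genes by 0.29 at E15.5 against E14, 0.53 at P0 against E12.5, 0.17 at P0 against E15.5 and 0.11 at P0 against E17 (log2). The median log2 ratio of the tested genes in CPM (pseudocount 0.1), P0 against E12.5, was -2.09 with TMM and -1.58 with total counts alone, and -2.08 relative to all genes in both.

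Replicate numbers were not taken as pairs, because only 5 of the 10 correlations between deviations of same-numbered libraries were over 0.1. They were -0.64 to -0.11 for E12.5 with each other stage and -0.04 to 0.43 among the other stages, where 5 of 6 were over 0.1. With the replicate number as a block the count was 2 at E17 against E15.5, 24 at E15.5 against E14, 9 at P0 against E17 and 25 at P0 against E12.5. The 2 libraries per stage, the spread between the P0 libraries and the low counts of several ligands limit what could be called.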

Other observations

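Wnt11 was uneven between replicates, with 17 counts in E17 replicate 1 and 0 in replicate 2, 5 and 0 at E14, and 2 and 9 at E12.5. Without the filter on low counts, Wnt2b, Fzd4, Fzd10, Dkk1 and Wnt10a were called lower at E15.5 than at E14, and Wnt2b, Fzd4, Fzd10 and Wnt6 lower at P0 than at E12.5. Dkk2, a Dickkopf inhibitor with 3 and 1 counts at E15.5 and 2 and 13 at P0, was called higher at P0 than at E15.5 in that setting. These genes held at most 31 counts at their highest stage, and the share of all genes called in that setting was not counted.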
